A study of Rattus norvegicus with 6 samples.

Results

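The 29 genes described here make cholesterol or control its synthesis through the transcription factor SREBP2. They are 20 enzymes that lead from acetyl-CoA to cholesterol and its isoprenoid branch, 4 genes of the SREBP2 control complex and 5 genes that move, store or take up sterols. They were chosen by name and read in rat liver on every array probe whose RefSeq accession belongs to one of them, which gave 57 of the 61657 probes other than controls, and 29 of the 15284 genes that could be named. All 29 were among the 11434 genes tested.

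Livers came from 6 male Sprague-Dawley rats (Crl:CD(SD)), an outbred strain, bought at an age of 5 weeks and kept on a basal diet. Of these, 3 received corn oil, the vehicle, and 3 received phenolphthalein, a former laxative, at 1000 mg/kg/day, with 1 array of total liver RNA per rat. The labels differ on the length of dosing, since the treatment protocol gives 9 weeks and the design text 28 days. The 3 corn oil arrays lay on 1 slide and scan and the 3 phenolphthalein arrays on another, so for every difference below the effects of treatment, slide and scan cannot be told apart.

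Across the arrays, 62.1% to 65.1% of probes were well above background, and the 75th percentile of the signal ran from 551 to 636. All 8 hepatocyte markers, such as Alb and Ttr, were detected, and their summed signal, in units of the array's 75th percentile, was 3055 to 3250.4 with corn oil and 3059 to 3202 with phenolphthalein, so the labelled tissue had its markers in both groups. Of the 4 pancreas markers, Cela1, Cpa1 and Prss1 did not pass the filter for dim probes, while Amy2a3 passed it and had overlapping groups. On phenolphthalein replicate 1, spot column 58 was dim, with 41 of its 93 bright spots (44.1%) low, and the only Mvk probe lies on it. A weaker line, column 144 on phenolphthalein replicate 3, had 12 of 102 bright spots (11.8%) low, and 1 of the 4 Insig1 probes lies there.

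Cholesterol is built in the endoplasmic reticulum, first as mevalonate, then as isoprenoid units joined into squalene, which is closed to lanosterol and trimmed to cholesterol. SREBP2 is made as a membrane protein that Scap carries to the Golgi for cleavage when sterols are low, while the Insig proteins hold Scap back when sterols are plentiful. The cleaved factor raises transcription of nearly every enzyme of the path, so in liver these genes are known for moving together, with Insig1 as a target that feeds back on the same complex.

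No member passed the test between treatments. In limma with Benjamini-Hochberg adjustment over 11434 genes, 0 of 29 were higher and 0 lower at an adjusted p under 0.05, with adjusted p from 0.249 to 0.996, and over all genes 0.0612% were called, 0.0525% higher and 0.00875% lower. An unadjusted p under 0.05 was reached by 6 members with a higher mean after phenolphthalein (Sqle, Idi1, Hsd17b7, Msmo1, Cyp51 and Tm7sf2) and by 1 with a lower mean (Mvd), against 7.16% and 8.11% of all genes. All 7 are synthesis enzymes.

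The sizes were small. The mean was higher with phenolphthalein for 20 of the 29 members and for 51.8% of all genes, and the median log2 fold change was 0.14 over the members and 0.0096 over all genes. A log2 fold change of 0.3 or more, a size chosen after the values were seen, was measured in 11 of 29 members and in 8.27% of all genes. A value of -0.3 or less was measured in 3 of 29 (Mvk, Aacs and Mylip) and in 13.2%. The lower mean of Mvk rests on 1 dim spot. Without Mvk, 20 of 28 members had a higher mean, the median was 0.16, and 2 of 28 lay at -0.3 or less. The 3 phenolphthalein arrays lay wholly above the 3 corn oil arrays for 4 members, against 12.2% of all genes, and wholly below for 2, against 11.0%, so separation of the groups was about as frequent as over all genes. In whole liver, fewer cells of a type and less RNA per cell cannot be told apart.

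How many members reached an unadjusted p under 0.05 varied with single arrays and with the scaling. That number was 7 with all arrays, and 3 (Sqle, Hsd17b7 and Mvd) under quantile normalization. It was 1, with a lower mean, when corn oil replicate 1 was left out, and again 1, lower, when corn oil replicate 2 was. Dropping phenolphthalein replicate 2 gave 0, and dropping phenolphthalein replicate 3 gave 2 with a higher and 2 with a lower mean. The count was 6, all higher, once corn oil replicate 3 was dropped and 9, all higher, once phenolphthalein replicate 1 was. The members' median was 0.075 without phenolphthalein replicate 2, and 6 members then had a log2 fold change of 0.3 or more. Members wholly above corn oil numbered 11 of 29 without corn oil replicate 3, against 1923 of 11426 genes with a value on every array. They numbered 11 of 29 without phenolphthalein replicate 1, against 2063 of 11426. Those 2 arrays hold the highest control and the lowest treated value for most enzymes, so dropping them favours separation. The count was 4 without corn oil replicate 1 (2017 genes) or phenolphthalein replicate 2 (1932 genes). It was 6 without corn oil replicate 2 (2166 genes) and 7 without phenolphthalein replicate 3 (2048 genes). Under quantile normalization, 18 of 29 members and 50.7% of all genes had a higher mean, and with a median shift 22 of 29 and 66.2%, so the share of higher genes moves with the scaling.

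**Figure D1:**
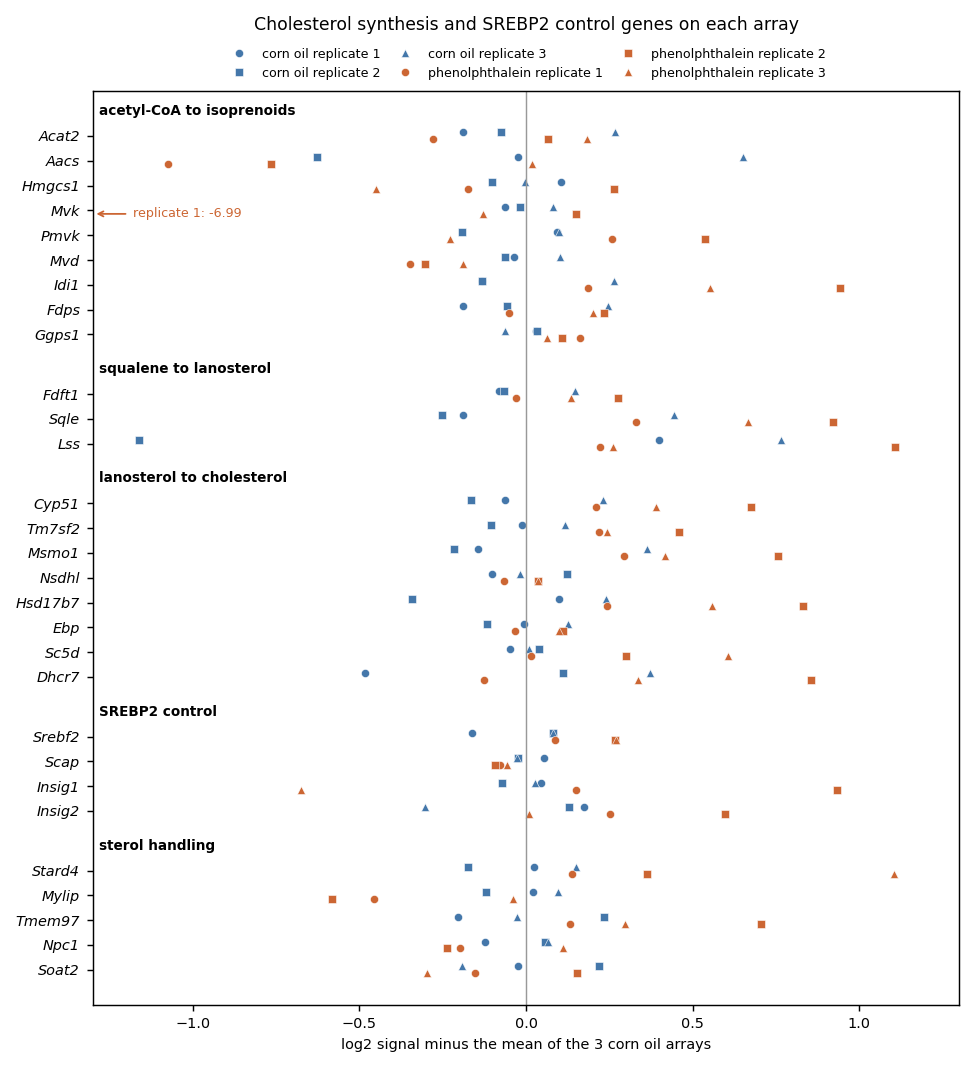
Log2 signal of the 29 genes on each of the 6 arrays, relative to the mean of the 3 corn oil arrays, with corn oil in blue, phenolphthalein in orange and the marker shape giving the replicate. Phenolphthalein replicate 2 (orange squares) lies to the right for most enzymes, corn oil replicate 3 (blue triangles) is mostly the rightmost blue point, and Mvk on phenolphthalein replicate 1 lies off the axis.

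Shown here are the 150 bases before the start of 6 members, from the RefSeq promoter table (assembly GRCr8). They are the members with an unadjusted p under 0.05 that this table holds, so they were chosen by values of these data. All but Mvd, whose difference has the opposite sign, had replicate 2 highest and replicate 1 lowest among the treated arrays on the probe read. That order is not particular to them. Sqle, Fdps, Fdft1, Lss, Nsdhl, Ebp, Dhcr7 and Tmem97 had it too, as did Mvk through its dim spot. Capitals mark CCAAT, the box bound by NF-Y, a partner of SREBP factors, on either strand, where ATTGG is its reverse. The windows are chr17:66547525-66547674 (minus strand) for Idi1, chr19:67414975-67415124 (minus) for Mvd, chr4:30991543-30991692 (plus) for Cyp51, chr1:212789542-212789691 (minus) for Tm7sf2, chr16:29746963-29747112 (plus) for Msmo1 and chr13:84722755-84722904 (minus) for Hsd17b7.
Idi1 promoter: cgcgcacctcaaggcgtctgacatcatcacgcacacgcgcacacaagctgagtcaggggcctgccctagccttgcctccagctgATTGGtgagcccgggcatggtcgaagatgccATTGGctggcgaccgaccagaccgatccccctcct
Mvd promoter: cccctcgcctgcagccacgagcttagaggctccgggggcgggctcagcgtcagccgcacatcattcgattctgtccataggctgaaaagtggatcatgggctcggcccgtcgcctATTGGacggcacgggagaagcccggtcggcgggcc
Cyp51 promoter: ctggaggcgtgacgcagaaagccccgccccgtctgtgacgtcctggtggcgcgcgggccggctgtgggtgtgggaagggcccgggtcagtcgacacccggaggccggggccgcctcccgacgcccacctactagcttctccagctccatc
Tm7sf2 promoter: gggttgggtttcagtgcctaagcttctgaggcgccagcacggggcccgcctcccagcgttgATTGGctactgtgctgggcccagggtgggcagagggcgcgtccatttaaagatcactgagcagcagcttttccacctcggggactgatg
Msmo1 promoter: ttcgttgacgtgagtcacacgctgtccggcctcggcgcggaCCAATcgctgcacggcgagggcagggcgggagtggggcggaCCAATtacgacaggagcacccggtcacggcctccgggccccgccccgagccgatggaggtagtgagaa
Hsd17b7 promoter: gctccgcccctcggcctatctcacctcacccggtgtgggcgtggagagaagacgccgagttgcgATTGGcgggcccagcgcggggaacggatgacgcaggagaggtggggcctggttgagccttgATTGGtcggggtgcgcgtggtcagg
Hsd17b7, Idi1 and Msmo1 each hold 2 such boxes in this window, Mvd and Tm7sf2 hold 1, and Cyp51 holds 0. Over the longer window of 250 bases before to 50 after the start, 24 of 29 members were in the table, all but Pmvk, Fdft1, Sqle, Stard4 and Soat2. CCAAT on either strand was found in 18 of 24 (75%), against 37.5% of 33469 promoters in the table and 38.1% of the 9839 that belong to tested genes. Nsdhl and Mvk, which are not among the 6 shown, hold the most, 5 each. Their log2 fold changes were 0.0015 for Nsdhl and, with its dim spot left out, 0.010 for Mvk. The GC box GGGCGG, bound by Sp1-family factors, was in 19 of 24 (79.2%), against 33.1% and 56.9%. The letters TCACNCCAC, a core of the sterol regulatory element, were in 0 of 24, against 1.12% and 1.14%, which says only that these letters are not in these windows. No motif contains another, and a match is a description, not a site.

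**Figure D2:**
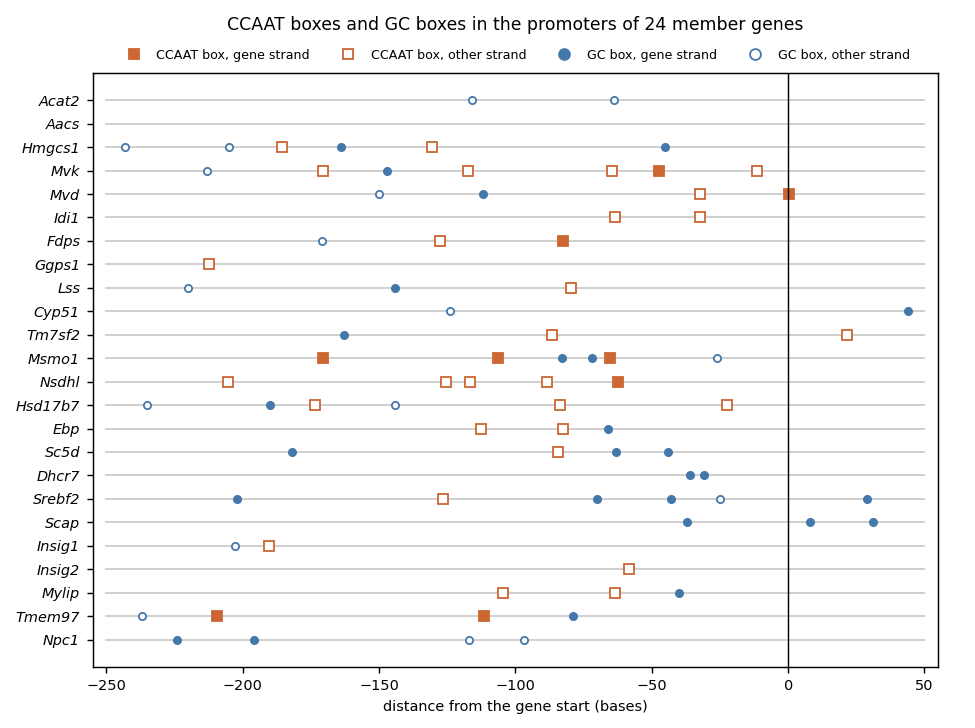
Positions of CCAAT boxes (squares) and GC boxes (circles) from 250 bases before to 50 bases after the start of 24 genes, with filled symbols for the gene's own strand and open ones for the other strand. Of the 24 genes, 18 hold a CCAAT box and 19 a GC box, and Aacs holds neither.

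The first 9 enzymes run from acetyl-CoA to the isoprenoid diphosphates. As a set they showed no common direction, with 4 means higher, 5 lower and a median log2 fold change of -0.0099. Mvk counts among the lower means through its dim spot, and differed by 0.010 with that spot left out. All levels below are log2 signal relative to the array's 75th percentile, in the order of replicates 1, 2 and 3, and a level is read only against the same probe. Hmgcs1, which makes HMG-CoA in the cytosol and is a classic SREBP2 target, read 6.86, 6.65 and 6.75 with corn oil and 6.58, 7.01 and 6.30 with phenolphthalein. The 3 phenolphthalein values straddle all corn oil values, and the log2 fold change was -0.12 ± 0.19 (SE; limma, adjusted p = 0.792). Its 3 probes gave -0.13 to -0.06, and the sign turned to 0.044 without phenolphthalein replicate 3.

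Idi1, the isomerase that turns isopentenyl diphosphate into dimethylallyl diphosphate, read 1.80, 1.80 and 2.19 with corn oil and 2.12, 2.87 and 2.48 with phenolphthalein. Corn oil replicate 3 lies above phenolphthalein replicate 1, so the groups overlap, and the log2 fold change was 0.56 ± 0.22, a fold of 1.47 (limma, unadjusted p = 0.0435, adjusted p = 0.317). Its 3 probes gave 0.41 to 0.56, and the value was 0.37 without phenolphthalein replicate 2. Mvd, which decarboxylates mevalonate diphosphate in the step just before Idi1, went the other way, at 0.36, 0.33 and 0.49 with corn oil against 0.05, 0.09 and 0.20 with phenolphthalein. All 3 treated values lie below all 3 control values, with a log2 fold change of -0.28 ± 0.09 (limma, unadjusted p = 0.0174, adjusted p = 0.249, the smallest adjusted p among the 29). Adjacent steps of one path thus differed in sign, which was not itself tested.

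Aacs, which makes acetoacetyl-CoA from the ketone body acetoacetate, was dim and scattered, at -2.72, -3.33 and -2.05 with corn oil and -3.77, -3.46 and -2.68 with phenolphthalein. The groups overlap, and the log2 fold change was -0.61 ± 0.41 (limma, adjusted p = 0.517). It was -0.28 without corn oil replicate 3, -0.37 without phenolphthalein replicate 1, and -0.92 without corn oil replicate 2 or phenolphthalein replicate 3. Mvk, mevalonate kinase, read -0.65, -0.60 and -0.51 with corn oil and -7.58, -0.44 and -0.72 with phenolphthalein. Its value on phenolphthalein replicate 1, on the dim column of spots, was 6.97 below the median of the other 5 arrays. The log2 fold change was -2.32 ± 1.92 with a 95% interval from -7.02 to 2.38 (limma, adjusted p = 0.596), and 0.010 with that spot left out.

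For the other 4 enzymes of this stretch every adjusted p was 0.511 or more. Acat2, the cytosolic thiolase that starts the path, had a log2 fold change of -0.0099, Pmvk, phosphomevalonate kinase, one of 0.19, and Fdps, farnesyl diphosphate synthase, one of 0.13 with all 3 of its probes between 0.10 and 0.13. Ggps1, which makes the geranylgeranyl diphosphate used to anchor proteins in membranes, had groups that do not overlap at 0.11, yet its other probe gave -0.08 with groups that do. It was the only member whose probes differed in sign.

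The 3 enzymes from farnesyl diphosphate to lanosterol all had a higher mean, with a median log2 fold change of 0.53. That median was 0.093 once corn oil replicate 2 was left out (where Lss turned lower), 0.24 once phenolphthalein replicate 2 was and 0.86 once corn oil replicate 3 was. Sqle, squalene epoxidase, an oxygen-using and rate-limiting step, read 1.62, 1.56 and 2.25 with corn oil and 2.14, 2.73 and 2.47 with phenolphthalein. Corn oil replicate 3 overlaps the treated arrays, and the log2 fold change was 0.64 ± 0.24, the highest among the 29 and a fold of 1.56 (limma, unadjusted p = 0.037, adjusted p = 0.302). Its other probe gave 0.56.

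Lss, lanosterol synthase, which closes squalene epoxide into the sterol ring, read 1.21, -0.34 and 1.58 with corn oil and 1.04, 1.92 and 1.08 with phenolphthalein. Corn oil replicate 2 is the one low array, and it is low by 1.64 to 1.74 against the mean of the other corn oil arrays on both Lss probes, which lie in different spot columns. The log2 fold change was 0.53 ± 0.54 (limma, adjusted p = 0.670), -0.051 without that array, 0.91 when corn oil replicate 3 was dropped and 0.24 when phenolphthalein replicate 2 was. Fdft1, squalene synthase, differed by 0.13 (adjusted p = 0.629 in limma) and by 0.20 on its other probe.

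All 8 enzymes from lanosterol to cholesterol had a higher mean with phenolphthalein, with a median log2 fold change of 0.33, and 4 of the 8 had a higher mean at an unadjusted p under 0.05, against 7.16% of all genes. That count was 0 of 8 when phenolphthalein replicate 2 or either of corn oil replicates 1 and 2 was dropped, and 1 of 8 when phenolphthalein replicate 3 was. With quantile normalization 6 of 8 were higher, since Nsdhl and Ebp turned to -0.030 and -0.029, and normexp background correction gave 7 of 8. Cyp51, the cytochrome P450 that removes the methyl group at carbon 14 of lanosterol, read 2.12, 2.01 and 2.41 with corn oil and 2.39, 2.85 and 2.57 with phenolphthalein. Only corn oil replicate 3 reaches the treated values, and the log2 fold change was 0.42 ± 0.16, a fold of 1.34 (limma, unadjusted p = 0.0393, adjusted p = 0.308). On its other probe the groups do not overlap, with a difference of 0.39.

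Tm7sf2, the sterol reductase that follows Cyp51, read 5.04, 4.95 and 5.17 with corn oil and 5.27, 5.51 and 5.30 with phenolphthalein. The groups do not overlap on either of its probes. The log2 fold change was 0.31 ± 0.10 (limma, unadjusted p = 0.0259, adjusted p = 0.276), and its other probe gave 0.43 (limma over all probes, unadjusted p = 0.00685, adjusted p = 0.237). Msmo1, the oxidase that starts removal of the methyl groups at carbon 4, read 4.66, 4.59 and 5.16 against 5.10, 5.56 and 5.22. Corn oil replicate 3 lies above phenolphthalein replicate 1, with a log2 fold change of 0.49 ± 0.20 (limma, unadjusted p = 0.0489, adjusted p = 0.324). Hsd17b7, the ketoreductase of the same demethylation, read -0.29, -0.73 and -0.15 against -0.15, 0.44 and 0.17. The highest control and the lowest treated array meet at -0.15 without crossing, and the log2 fold change was 0.54 ± 0.21 (limma, unadjusted p = 0.0418, adjusted p = 0.313). Its other probe gave 0.38, with groups that overlap.

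The remaining 4 enzymes of this stretch were not past an unadjusted p of 0.05. Nsdhl, the decarboxylase of the same demethylation complex as Msmo1 and Hsd17b7, differed by 0.0015 ± 0.089, so its neighbours in the complex had larger differences, which was not tested. Ebp, the sterol isomerase, differed by 0.06 ± 0.09. Sc5d, a desaturase, differed by 0.31 ± 0.16 with adjusted p = 0.404 in limma, or by 0.16 without phenolphthalein replicate 3. Dhcr7, which reduces the last precursor to cholesterol, differed by 0.36 ± 0.32 with adjusted p = 0.625 in limma. The Dhcr7 value was 0.11 without corn oil replicate 1 or phenolphthalein replicate 2, 0.54 when corn oil replicate 3 was dropped and 0.60 when phenolphthalein replicate 1 was.

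**Figure D3:**
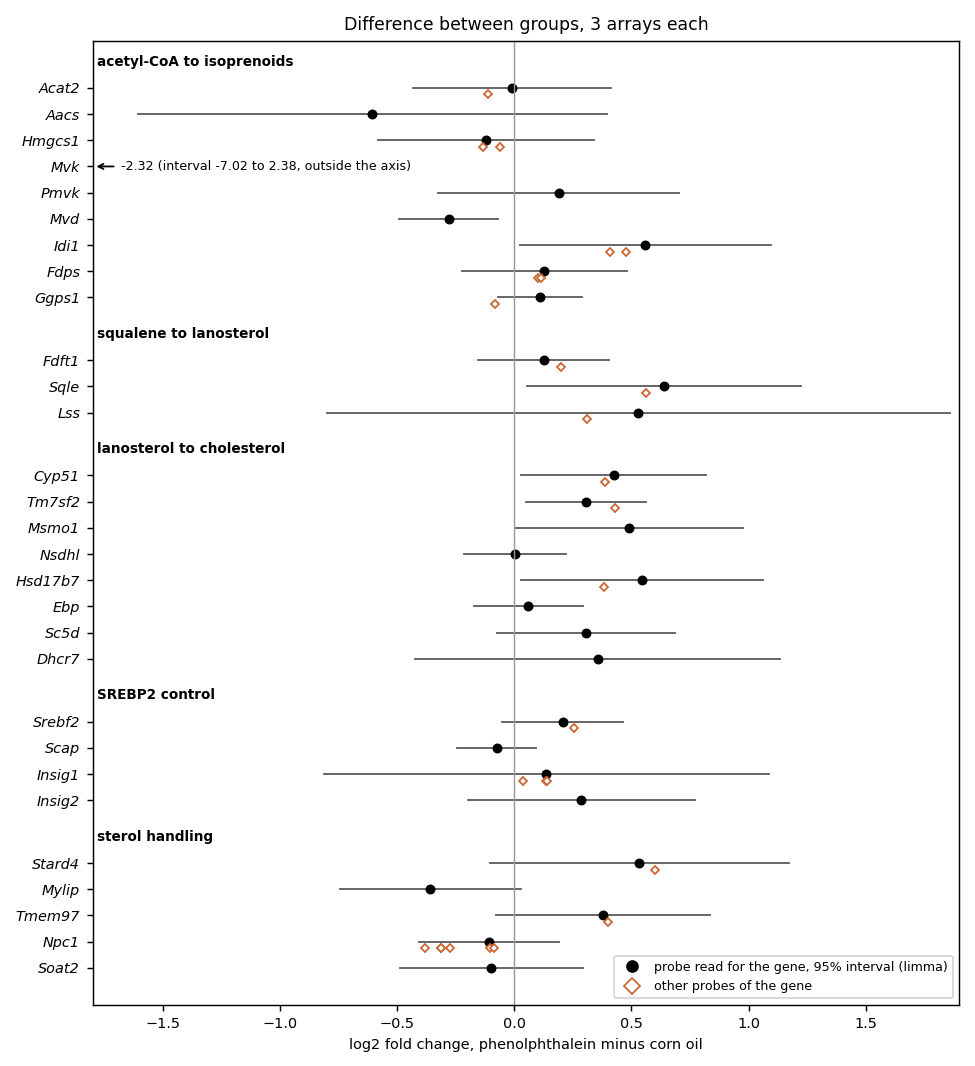
Log2 fold change of each of the 29 genes, phenolphthalein minus corn oil, 3 arrays each, with the limma 95% interval for the probe read for the gene (black) and the values of its other probes past the filter (orange diamonds). Every mean from squalene to cholesterol lies at or right of 0 (Nsdhl and Ebp turn left with quantile normalization), intervals of 7 enzymes exclude 0 before adjustment, and none of the 29 passed after it.

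Within each treatment group the same array held the highest or the lowest value for most of the 20 enzymes. Corn oil replicate 3 had the highest value of its group for 16 of the 20 enzymes (80%), against 30.4% of 11426 genes. Phenolphthalein replicate 2 was the highest of its group for 15 of 20 (75%), against 27.1%, and the lowest for 0 of 20. Phenolphthalein replicate 1 was the lowest for 17 of 20 (85%), or 16 of 19 without Mvk (84.2%), against 34.1%. Under quantile normalization these counts were 17, 15 and 16 of 20, and with a median shift 15, 15 and 17. The 20 genes share the same 6 arrays and are not separate measurements of the animals, so the counts are a description.

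On the scale of each gene's deviation from its mean over all arrays, the median over the 20 enzymes was -0.15, -0.14 and 0.09 for corn oil replicates 1, 2 and 3 and -0.08, 0.31 and 0.15 for phenolphthalein. Corn oil replicate 3 thus lies above phenolphthalein replicate 1, so the groups overlap on this measure. The exceptions within phenolphthalein were Hmgcs1, Pmvk and Ggps1, which had their lowest value on replicate 3 and not on replicate 1. Acat2, Aacs, Mvd and Sc5d had their highest value on replicate 3 and not on replicate 2.

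**Figure D4:**
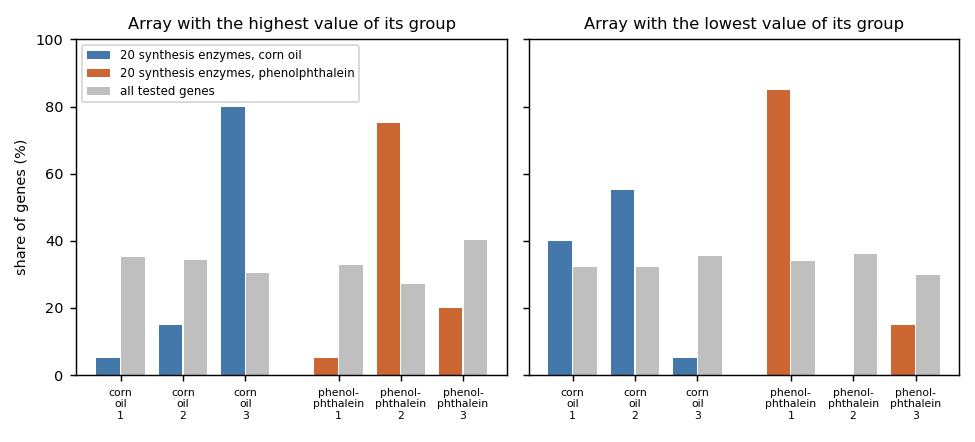
Share of genes, in percent, for which each array holds the highest (left) or the lowest (right) value of its group of 3, for the 20 synthesis enzymes (coloured bars) and all tested genes (grey bars). Corn oil replicate 3 is highest for 80% of the enzymes, phenolphthalein replicate 2 is highest for 75% and phenolphthalein replicate 1 is lowest for 85%, while all genes give 27.1% to 40.2%.

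Of the 4 genes of the SREBP2 complex, 3 had a higher mean and none an unadjusted p under 0.05. Srebf2, which encodes SREBP2 itself, read 2.18, 2.43 and 2.43 with corn oil and 2.43, 2.61 and 2.62 with phenolphthalein. Its groups touch at 2.43 without crossing, with a log2 fold change of 0.21 ± 0.11 (limma, unadjusted p = 0.097, adjusted p = 0.406). Another probe past the filter gave 0.26 with groups that overlap, and the remaining one was well above background on 2 of 6 arrays. Scap, the escort protein, was the steadiest of the 4, at 2.59, 2.51 and 2.51 against 2.46, 2.45 and 2.48. Its treated values lie wholly below the controls by a log2 fold change of only -0.08 ± 0.07 (limma, adjusted p = 0.627), and a median shift turned the sign to 0.0027.

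Insig1, the sterol-responsive anchor of Scap, showed the widest spread among treated animals of the 4 control genes. It read 5.32, 5.20 and 5.30 with corn oil, and 5.42, 6.21 and 4.60 with phenolphthalein. The treated range was 1.61 to 1.80 over its 4 probes, against 0.12 to 0.42 with corn oil, while the range of 3 arrays over all genes had a median of 0.26 and a 90th percentile of 0.80 in each group. On every probe phenolphthalein replicate 2 was 0.93 to 1.05 above the corn oil mean and replicate 3 was 0.66 to 0.82 below it, and 3 of these probes lie off the dim column. The log2 fold change was 0.14 ± 0.39 (limma, adjusted p = 0.890), -0.26 without phenolphthalein replicate 2 and 0.54 without replicate 3. Whether the spread differs between treatments was not tested.

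On 2 of its 3 probes, including the one read for the gene, Hmgcs1 had the same order within phenolphthalein as Insig1, with replicate 2 highest and replicate 3 lowest, while Sqle, Idi1, Cyp51 and Msmo1 had replicate 1 lowest. Insig2, the second anchor, read 4.86, 4.82 and 4.39 with corn oil and 4.94, 5.29 and 4.70 with phenolphthalein. Replicate 2 was again the highest treated array, the groups overlap, and the log2 fold change was 0.29 ± 0.20 (limma, adjusted p = 0.526), or 0.13 without that array or corn oil replicate 3. In all, 6 of the 29 members had their lowest treated value on replicate 3, namely Hmgcs1, Pmvk, Ggps1, Insig1, Insig2 and Soat2.

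**Figure D5:**
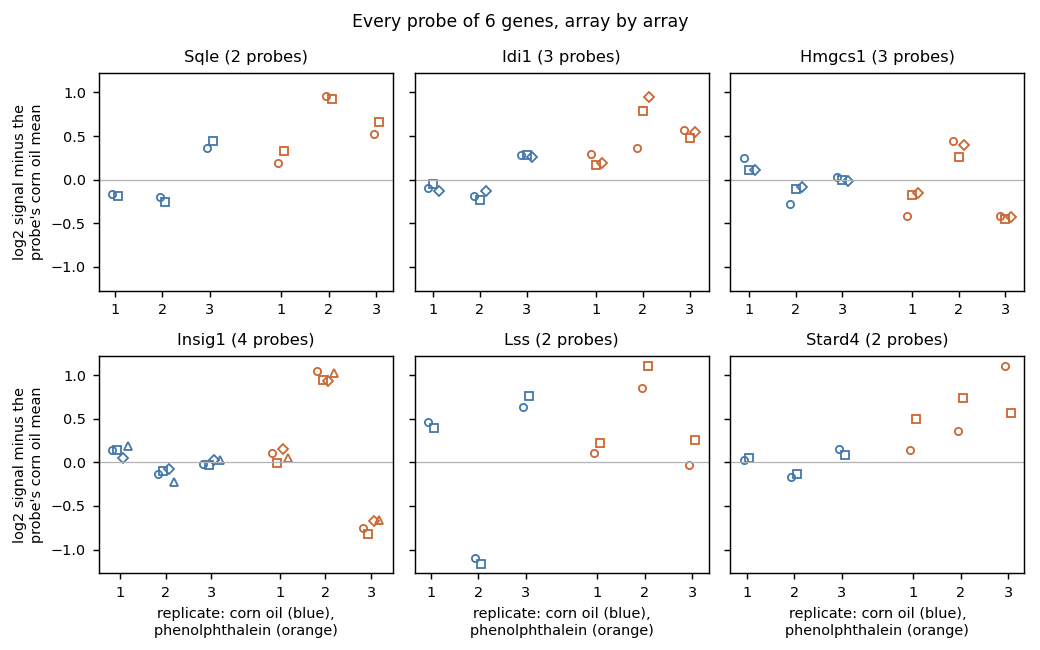
Log2 signal of every probe of Sqle, Idi1, Hmgcs1, Insig1, Lss and Stard4 on the 6 arrays, relative to the probe's corn oil mean, with 1 marker shape per probe. The 4 Insig1 probes give the same spread with phenolphthalein and both Lss probes the same low value on corn oil replicate 2. The Stard4 probes differ on each phenolphthalein array, in the opposite direction on replicate 3, and 1 Idi1 probe differs on phenolphthalein replicate 2.

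The 5 sterol-handling genes split, with 2 means higher and 3 lower, and none had an unadjusted p under 0.05 on the probe read for the gene. Stard4, a soluble protein that carries cholesterol between membranes and an SREBP2 target, read 2.39, 2.19 and 2.52 with corn oil and 2.50, 2.73 and 3.47 with phenolphthalein. On this probe the high array was replicate 3, not replicate 2, and the log2 fold change was 0.53 ± 0.26 (limma, unadjusted p = 0.0859, adjusted p = 0.388), or 0.25 without that array. Its other, dimmer probe read -0.98, -1.17 and -0.96 against -0.54, -0.30 and -0.47, with replicate 2 the highest. There the groups do not overlap, and the difference of 0.60 ± 0.11 had the smallest adjusted p of all member probes (limma over all probes, unadjusted p = 0.00134, adjusted p = 0.176).

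Mylip, the ubiquitin ligase that sends lipoprotein receptors to degradation, read -1.10, -1.24 and -1.02 with corn oil and -1.57, -1.70 and -1.16 with phenolphthalein. Phenolphthalein replicate 3 lies among the controls, and the log2 fold change was -0.36 ± 0.16 (limma, unadjusted p = 0.0632, adjusted p = 0.351). Tmem97, a membrane protein that binds sterols and NPC1, differed by 0.38, by 0.40 on its other probe and by 0.21 without phenolphthalein replicate 2. Npc1, which exports cholesterol from lysosomes, differed by -0.11 ± 0.12 on the probe read for it, while its 7 probes ran from -0.38 to -0.09, all negative, and 2 had an unadjusted p under 0.05 in limma. Soat2, which esterifies cholesterol, differed by -0.10 ± 0.16.

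Over all 55 member probes past the filter, 0 had an adjusted p under 0.05 in limma, against 0.0482% of 39411 probes. An unadjusted p under 0.05 was reached by 11 probes in 8 genes, 8 higher and 3 lower, against 6.84% and 6.37% of all probes. Of the 16 members with over 1 probe past the filter, the probes shared a sign in 15. In 14 the differences between groups lay within 0.2 log2 units of each other, though probes could differ more on single arrays, as for Stard4.

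The neighbouring sterol genes, a list of 31 of which 27 were tested, gave no common direction, with 14 means higher, 13 lower and a median of 0.00039. None had an adjusted p under 0.05 in limma, and 3 were higher and 3 lower at an unadjusted p under 0.05, against 7.16% and 8.11% of all genes. Abcg1, a sterol exporter controlled by LXR, the receptor for oxysterols, read 2.07, 1.91 and 1.83 with corn oil and 1.19, 1.02 and 1.31 with phenolphthalein. The groups are well apart, with a log2 fold change of -0.76 ± 0.11 (limma, unadjusted p = 0.00046, adjusted p = 0.116). Npc2, the lysosomal partner of Npc1, differed by -0.34 ± 0.10, and Pggt1b, a subunit of the enzyme that attaches geranylgeranyl groups, by 0.72 ± 0.21, each with groups that do not overlap.

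Markers of macrophages were lower beside these sterol genes. All 7 Kupffer cell and macrophage markers had a lower mean with phenolphthalein, while 51.8% of all genes had a higher one. Their median log2 fold change was -0.63, with 0 past the adjusted threshold in limma. The treated arrays lay wholly below for all but Vsig4, against 11.0% of all genes. Their summed signal was 93.1 to 125 with corn oil against 63.3 to 84.7. Most of that sum is Clec4f, with a log2 mean of 6.35 with corn oil, against 3.76 for Cd68, the next brightest. Lymphocyte markers were lower in 5 of 5 tested, with a summed signal of 2.80 to 3.30 against 2.06 to 2.30, with Cd3e not tested. Stellate cell markers were lower in 5 of 6, with a median of -0.14. There Col1a1 lay wholly below and Rgs5 wholly above corn oil. Endothelial markers were lower in 3 of 3 tested, with a median of -0.076 and overlapping groups. Of 3 bile duct markers tested, 2 had a higher and 1 a lower mean, and their summed signal was 1.41 to 1.47 against 1.64 to 1.70, with groups apart for Epcam and overlapping for Krt7 and Krt19. Their part in the differences of Abcg1, Npc1, Npc2 and the other genes was not tested.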

How the data were processed

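RNA of 6 livers was labelled with Cy3 and read on 1-colour Agilent arrays, as the labels' protocols state. Spot intensity in the deposited scanner files was background-subtracted, per the file headers, by Feature Extraction (10.7 in the submitters' processing notes, 10.7.1.1 in the headers), without scaling between arrays. The value table that the authors deposited equals that intensity after division by a constant for each array, so it is linear and uncentred, with column medians of 0.0941 to 0.102.

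From each array's log2 processed signal the log2 of its 75th percentile was subtracted, spots with an outlier mark being left out. A probe entered the test if 3 of the 6 arrays or more showed it well above background, and the brightest probe stood for a gene. Names came from RefSeq accessions (27460 probes with 1 gene, 34197 with none). Genes and probes were tested in limma 3.58.1 (R 4.3.3) with Benjamini-Hochberg adjustment at 0.05, and the script was tested on simulated data. The changes simulated there were larger than those of every member but Mvk, so that check does not show whether differences of the members' size could be called. Levels on every array are given for members with an unadjusted p under 0.05, the 4 highest and 4 lowest fold changes, Srebf2, Scap, Insig1, Insig2, Hmgcs1, Sqle and Mvk, for Lss, chosen after its values were seen, and of the other sterol genes at most the 4 with the smallest p. The members and lists were chosen with earlier results of these data known. The number of arrays limits the precision, and labels name the rats but not cages or preparation days. Of the other sterol genes, 4 were not analysed here, and 1 that the naming rule takes is not reported here. The settings tried are given at the end.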

Additional observations from a re-analysis of the deposited data

How the results depend on the processing

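Under 17 other settings, 6 of which leave out an array, 0 of 29 members passed the adjusted threshold in limma, and the smallest adjusted p was 0.153. The direction was the same in all 17 for 20 members, but several of these settings could not turn a sign. Testing every probe, the intensity trend, the replicate block, no filter and detection on all 6 arrays left the members' fold changes as they were. The deposited values are the same intensities divided by a constant, and setting dim lines missing changed only Mvk. Only the rescalings, normexp, averaged probes and left-out arrays bear on the direction of the others. Outside the left-out arrays, signs turned for Mvk with the lines of dim spots set missing (0.010), Acat2 and Scap with a median shift (0.069 and 0.0027), Nsdhl with normexp or quantile normalization (-0.0062 and -0.030), Soat2 with normexp (0.019) and Ebp with quantile normalization (-0.029). Without 1 array the values ran from -0.050 to 0.063 for Nsdhl, -0.051 to 0.91 for Lss, -0.22 to 0.010 for Soat2, -0.11 to 0.12 for Acat2, -3.56 to 0.010 for Mvk, -0.26 to 0.54 for Insig1 and -0.31 to 0.044 for Hmgcs1. A median shift adds the same 0.079 to every log2 fold change, which turned Acat2 and Scap in that setting. The sign of Mvk turns with 1 dim spot. The cause of the other turns was not tested. Mvk could not be tested with detection required on all 6 arrays. The members' median was 0.075 to 0.20 without 1 array and 0.12 to 0.22 otherwise, where the 0.22 holds the constant of the median shift.

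Over all genes, 6 were called higher and 1 lower. Testing every probe gave 18 higher, and without 1 array 0 to 6 were higher and 0 lower. The replicate block, with replicate numbers that do not pair the animals (same-number correlations -0.025 to 0.017, and 0 of 6 samples closest to their own number), gave 0 higher and 0 lower. An intensity trend with a robust prior, no filter on dim probes, normexp and quantile normalization each gave 0 lower, and detection on all 6 arrays gave 2. The median of the other sterol genes was 0.034 when probes were averaged per gene, -0.033 with quantile normalization and 0.0013 to 0.047 without 1 array. With a median shift it was 0.079, through the constant which that setting adds to every gene. Normexp was run on the median spot signal. The number of arrays and the shared slide of each group limit these comparisons.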
